A study of Mus musculus with 6 samples.

Results

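The enzymes that make serine and pass its carbon to folate were measured as 10 genes, taken by gene symbol from a deposited table of 23420 genes: Phgdh, Psat1, Psph, Shmt1, Shmt2, Mthfd1, Mthfd2, Mthfd1l, Gldc and Aldh1l2. All 10 were in the table and all 10 passed the filter on low counts. The RNA came from mouse kidneys at embryonic day 18.5. A wild-type female was mated with a male heterozygous for Six2-GFP, a transgene named for Six2, a transcription factor of the nephron progenitors, whose fluorescence marked the cap mesenchyme that holds them. Kidneys of transgenic littermates were handled together and dissociated, and the sorter separated GFP-positive cells (Six2-high) from GFP-negative cells (Six2-low), with the gate set on kidneys lacking the transgene. Six2-low is therefore a mixture of the other kidney cells, and a lower level in a fraction can reflect fewer cells with the RNA or less of it per cell, which bulk RNA cannot tell apart. Each fraction has 3 polyadenylated RNA libraries from 3 preparations, tagged 14_6 TRI (preparation 1), 17_7 Norgen (preparation 2) and 17_7 TRI (preparation 3). The numbers in each tag are read here as a date, which the labels do not state, and the last part as an RNA purification kit. The protocol speaks of 3 experiments, but preparations 2 and 3 carry the same date tag, and whether they came from separate litters is not stated, so the spread between libraries may in part be technical. The sort also used scatter to leave out red blood cells.

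Serine is built from a glycolytic intermediate by PHGDH, PSAT1 and PSPH in turn. The hydroxymethyltransferases SHMT1, in the cytosol, and SHMT2, in mitochondria, split it into glycine and a carbon unit held by folate, and the mitochondrial glycine cleavage system, whose decarboxylase is GLDC, takes a further unit from glycine. Mitochondria turn these units into formate through MTHFD2 and MTHFD1L, MTHFD1 takes formate up again in the cytosol for purine and thymidylate synthesis, and ALDH1L2 instead oxidises the mitochondrial formyl unit to CO2.

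Total counts ran from 23535399 to 29791421 per library. Levels are CPM, counts scaled to a common TMM-adjusted library size. Six2 was at 1224 ± 332 CPM in the GFP-positive and 15.2 ± 7.05 CPM in the GFP-negative libraries (SD, n = 3), and Cited1, another progenitor gene, at 145 ± 54.0 and 5.84 ± 1.16 CPM. Of 14 cap mesenchyme markers 13 were higher in Six2-high, with a summed level of 4596 to 6746 CPM against 616 to 797 CPM. Every tested marker of the loop of Henle and distal tubule (10) and proximal tubule (16) was lower in Six2-high. So was every one of the ureteric bud and collecting duct (12) and endothelium (9). Also lower were 7 of 8 podocyte, 10 of 11 immune, 10 of 11 stromal and 3 of 3 erythroid markers. The remaining stromal marker, Foxd1, was higher with TMM scaling (edgeR adjusted p = 0.046) but overlapped between fractions. It was not called with RLE or total-count scaling, nor by DESeq2 (adjusted p = 0.085). Within preparations 1 to 3 Foxd1 was higher in Six2-high each time (log2 difference 1.40, 1.22 and 1.40). With preparation as a block in the fit it was 1.34 (SE 0.07, edgeR adjusted p = 2.5e-05). Summed stromal markers were at 372 to 388 CPM in Six2-high against 3501 to 4157 CPM, and summed proximal tubule markers at 108 to 187 against 1528 to 1935 CPM. Summed erythroid markers stood at 1615 CPM in Six2-low of preparation 1 and at 134 and 135 CPM in the other Six2-low libraries. Rn45s, the precursor of ribosomal RNA, held 9.59% of the counts of Six2-high preparation 3 and 0.499% to 0.676% in the other 5 libraries.

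The comparison of fractions asks whether these enzymes differ between nephron progenitors and the rest of the kidney. Gldc and Mthfd1l were higher in Six2-high, Mthfd1 and Psph were lower, and the other 6 genes did not pass (edgeR quasi-likelihood test without pairing, two-sided, Benjamini-Hochberg adjusted p under 0.05 over 15347 genes). The 4 calls of 10 stand beside 50.1% of all genes tested, 21.4% higher and 28.7% lower, so the enzymes were not called more often than genes in general. Their median absolute log2 fold change was 0.31, against 0.47 for all genes tested, and their median log2 fold change was 0.10, against 0.05. The fractions did not overlap in 5 of the 10 genes, against 60.0% of all genes tested. With preparation as a block Phgdh joined the genes called higher, which made 5 of 10, where that fit called 64.6% of all genes, 31.7% higher and 33.0% lower. DESeq2 called 4 of the 10, and 47.8% of the genes it tested.

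**Figure D1:**
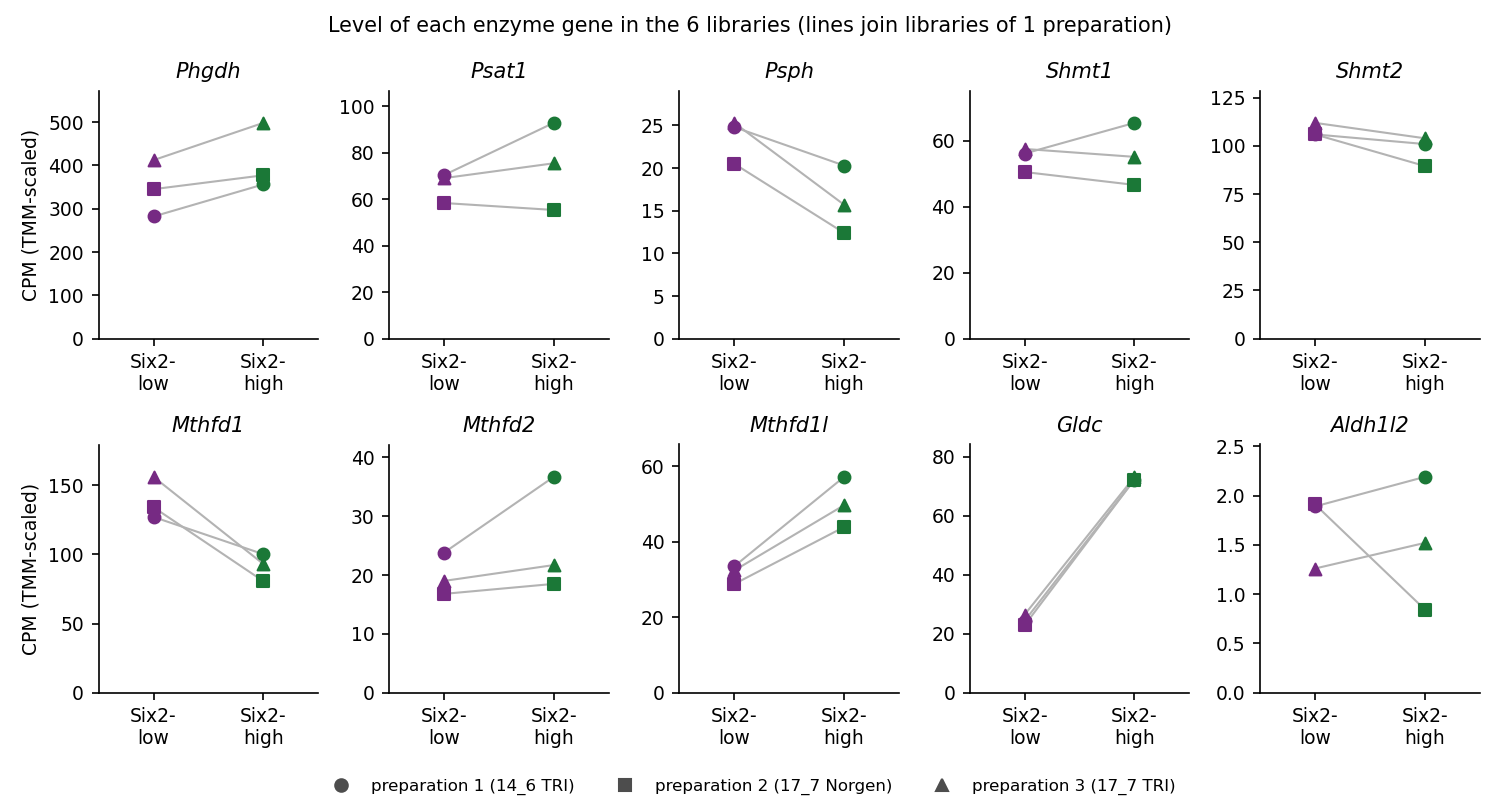
Level of each of the 10 enzyme genes in CPM (y axis, from 0, scaled per panel) in the Six2-low and Six2-high libraries, with lines joining the libraries of 1 preparation. Gldc sits at 72.3 to 73.2 CPM in Six2-high against 22.9 to 26.5 CPM in Six2-low, while the points of Shmt1 and Phgdh overlap between fractions.

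Among the enzymes of serine synthesis, Phgdh, which commits the glycolytic intermediate to the pathway, had the highest level of the 10 genes. It lies on chromosome 3 (mm10, 98313170 to 98339990, minus strand). It was at 356, 377 and 498 CPM in Six2-high of preparations 1 to 3 and at 282, 345 and 412 CPM in Six2-low. Both fractions were lowest in preparation 1 and highest in preparation 3, so the fractions overlapped although Six2-high was above Six2-low in each of the 3 preparations. Phgdh had a log2 fold change of 0.24 (SE 0.18, edgeR adjusted p = 0.28). With preparation as a block it was 0.25 with a smaller error (SE 0.07, edgeR adjusted p = 0.018), a call that the unpaired fit and DESeq2 (adjusted p = 0.35) did not make. The block, like the unpaired fit, counts preparations 2 and 3 as separate although they share a date tag. With these summed in each fraction and no block, Phgdh was at 0.25 and did not pass (edgeR adjusted p = 0.35). The summed fit also drops the pairing, so it cannot tell what the shared tag adds to the block call. The annotation holds 21 processed pseudogenes that match the Phgdh transcript over at least 200 bases at 85% identity or more. Of these 2 are in the deposited table, at mean counts of 0.7 and 0.0. The level of Phgdh is uncertain to the extent that reads are shared with the 21. Psat1, Shmt2 and Mthfd1l have 1 such pseudogene each, none of them in the deposited table.

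Psat1, the aminotransferase of the second step (chromosome 19, 15904678 to 15947337, minus strand), was at 92.9, 55.4 and 75.5 CPM in Six2-high and 70.4, 58.4 and 69.1 CPM in Six2-low. The Six2-high libraries of preparations 1 and 3 lay above the Six2-low range and that of preparation 2 below it. Psat1 had a log2 fold change of 0.18 (SE 0.18, edgeR adjusted p = 0.45), and it was -0.03 without Six2-high replicate 1.

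Psph, the phosphatase that releases serine (chromosome 5, 129765558 to 129787449, minus strand), was lower in Six2-high, at 20.3, 12.4 and 15.7 CPM against 24.8, 20.5 and 25.3 CPM. The highest Six2-high library lay just under the lowest Six2-low library, and Six2-high was lower in each preparation. Its log2 fold change was -0.55 (SE 0.20, edgeR adjusted p = 0.046), and -0.56 with the block (SE 0.12, edgeR adjusted p = 0.0064). The unpaired call was lost on leaving out any 1 library other than Six2-high replicate 1 (edgeR adjusted p = 0.053 to 0.14). Psph shares 452 exon bases with Cct6a, a chaperonin gene on the opposite strand, which stood at 224 ± 23.0 against 179 ± 20.2 CPM, and since the strand setting of the counting is not given, Psph is uncertain for that reason.

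Summed over Phgdh, Psat1 and Psph the level was 501 ± 77.4 CPM against 436 ± 65.0 CPM, and the fractions overlapped. Within preparations 1 to 3 the sum was 469 against 378, 445 against 424 and 589 against 506 CPM, higher in Six2-high in each, with no test made of the sum. Phgdh alone made up 39.4% to 50.4% of the summed CPM of the 10 genes in Six2-high and 37.7% to 45.2% in Six2-low. Per exon kilobase, the ratio of Phgdh to Psph was 16.1, 27.9 and 29.1 in Six2-high of preparations 1 to 3 and 10.4, 15.4 and 14.9 in Six2-low, higher in Six2-high within each preparation. That of Phgdh to Psat1 was 5.94, 10.6 and 10.2 against 6.22, 9.15 and 9.24, with overlapping fractions.

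Neither hydroxymethyltransferase gene passed the test. Shmt1 (chromosome 11, 60788104 to 60811718, minus strand) was at 65.4, 46.6 and 55.1 CPM in Six2-high and 56.1, 50.5 and 57.5 CPM in Six2-low. The ranges overlapped entirely, with a log2 fold change of 0.03 (SE 0.14, edgeR adjusted p = 0.89) and 2 SE either side reaching from -0.25 to 0.31. Shmt1 shares 184 exon bases with Smcr8, on the opposite strand at a like count.

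Shmt2 (chromosome 10, 127517123 to 127522444, minus strand) was at 101, 89.6 and 104 CPM in Six2-high and 106, 106 and 112 CPM in Six2-low. The fractions did not overlap, but the gap was narrow, and the log2 fold change of -0.13 (SE 0.10, edgeR adjusted p = 0.30) did not pass, with 2 SE either side from -0.34 to 0.07. Neither interval reaches a log2 difference as large as that of Mthfd1l or Mthfd1.

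**Figure D2:**
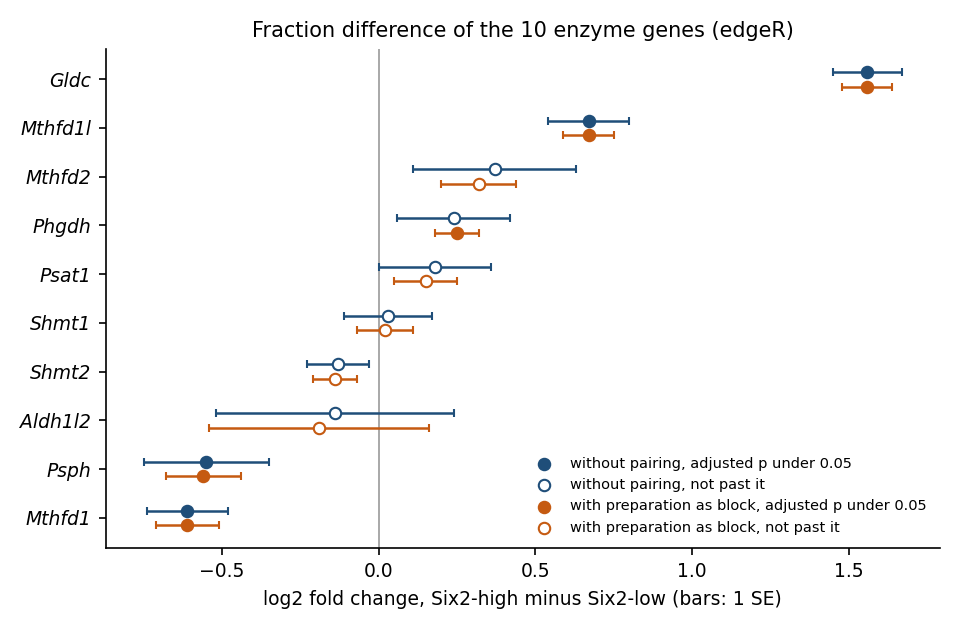
Log2 fold change of each gene, Six2-high minus Six2-low (x axis), with bars of 1 SE, from the edgeR fit without pairing (blue) and with preparation as a block (orange). Filled points passed an adjusted p of 0.05: Gldc (1.56), Mthfd1l (0.67), Psph (-0.55) and Mthfd1 (-0.61) in both fits, and Phgdh (0.25) with the block only.

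Of the genes that interconvert folate-bound units, the cytosolic Mthfd1 was lower and the mitochondrial Mthfd1l higher in Six2-high, and the mitochondrial Mthfd2 did not pass. Mthfd1, the cytosolic enzyme with 3 activities (chromosome 12, 76255298 to 76319803, plus strand), was lower in Six2-high, at 100.1, 80.6 and 93.0 CPM against 127, 134 and 156 CPM. The fractions did not overlap, and the log2 fold change was -0.61 (SE 0.13, edgeR adjusted p = 0.0041), with differences of -0.35, -0.73 and -0.74 in preparations 1 to 3. Without both libraries of preparation 3 it was -0.53 (edgeR adjusted p = 0.064).

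Mthfd1l, the mitochondrial formyl-folate synthetase that releases formate (chromosome 10, 3973118 to 4167081, plus strand), was higher in Six2-high, at 57.2, 43.9 and 49.7 CPM against 33.5, 28.8 and 32.4 CPM. Every Six2-high library stood above every Six2-low library. The log2 fold change was 0.67 (SE 0.13, edgeR adjusted p = 0.0031), with 0.77, 0.61 and 0.62 in preparations 1 to 3. Without both libraries of preparation 3 it was 0.70, at the threshold (edgeR adjusted p = 0.05 after rounding).

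Mthfd2, the mitochondrial dehydrogenase and cyclohydrolase that precedes MTHFD1L (chromosome 6, 83305691 to 83325908, minus strand), was at 36.7, 18.5 and 21.7 CPM in Six2-high and 23.8, 16.8 and 19.0 CPM in Six2-low. Both fractions were highest in preparation 1 and overlapped, although Six2-high was above Six2-low each time. The log2 fold change of 0.37 (SE 0.26, edgeR adjusted p = 0.27) did not pass, nor did it with the block (0.32, SE 0.12, edgeR adjusted p = 0.056).

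The balance of compartments was read within each library as the log2 ratio of the mitochondrial to the cytosolic gene, in counts per exon kilobase with 0.5 counts added, so that it does not depend on library scaling. Mthfd1l over Mthfd1 was -1.21, -1.28 and -1.30 in Six2-high and -2.32, -2.62 and -2.66 in Six2-low. The ratio was thus 0.417 in Six2-high and 0.173 in Six2-low, 2.42 times apart, with no overlap and little spread in either fraction (SD 0.05 and 0.18 on the log2 scale). Mthfd2 over Mthfd1 was -0.81, -1.49 and -1.46 against -1.78, -2.36 and -2.39, also without overlap, and 1.90 times apart. Within preparations the log2 difference was 1.12 to 1.36 for the first pair and 0.87 to 0.97 for the second. Shmt2 over Shmt1 was 0.93, 1.25 and 1.23 against 1.22, 1.38 and 1.27, where the fractions overlapped and the mean difference was -0.15. A two-sided exact permutation test over libraries gave p = 0.10 for both Mthfd ratios, the smallest that 3 against 3 can give, and p = 0.30 for the Shmt ratio. After Benjamini-Hochberg adjustment over the 3 ratios these exact permutation values were 0.15, 0.15 and 0.30, so none could pass in this design. Both Mthfd ratios share Mthfd1 and are not independent.

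**Figure D3:**
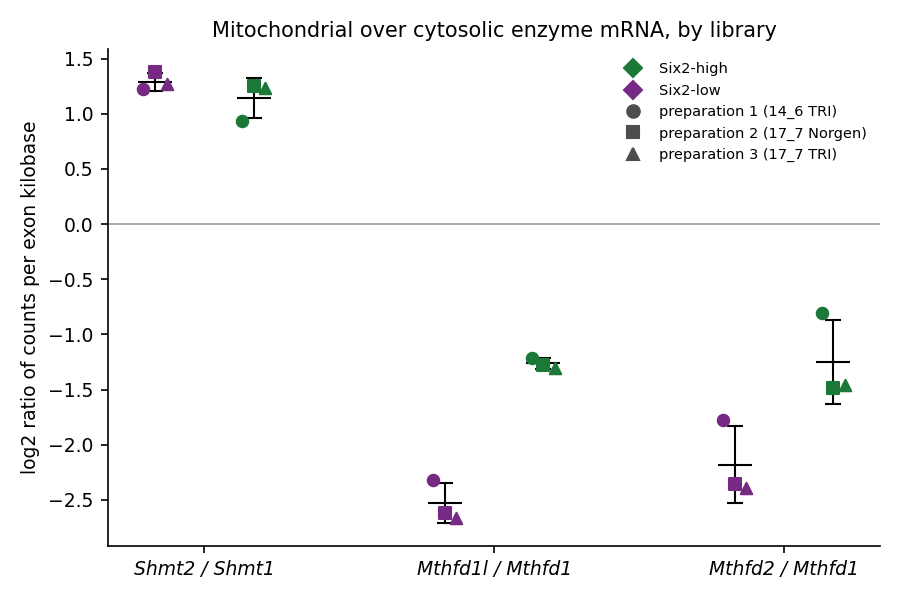
Log2 ratio of the mitochondrial to the cytosolic gene in counts per exon kilobase (y axis) for 3 pairs of enzymes, by library, with bars at the mean and 1 SD of 3 libraries. The Mthfd1l to Mthfd1 ratio averages -1.26 in Six2-high and -2.53 in Six2-low, and the Shmt2 to Shmt1 ratios overlap.

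Gldc, the glycine decarboxylase (chromosome 19, 30098447 to 30175429, minus strand), had the largest difference of the 10 genes. It was at 72.3, 72.3 and 73.2 CPM in Six2-high and 24.4, 22.9 and 26.5 CPM in Six2-low. The 3 Six2-high libraries were nearly equal, with a coefficient of variation of 0.697%, where those of the other 9 genes in that fraction ran from 7.69% to 44.3%. These values rest on 2081, 1715 and 1491 counts, and sampling of reads alone would usually spread such counts more. The near equality is therefore not read as a property of Gldc. The log2 fold change was 1.56 (SE 0.11, edgeR adjusted p = 7.1e-06), or 2.95 times in linear means, and was 1.57, 1.66 and 1.46 in preparations 1 to 3. Gldc was the only one of the 10 to pass against a 2-fold change, where 20.9% of all genes tested passed. Distance was taken between centred log2 CPM over the 6 libraries, among 10235 tested genes averaging 10 CPM or more. Predicted-gene symbols (Gm with digits, or ending in Rik) were not among them. The nearest to Gldc were Pip5k1b, a lipid kinase gene (distance 0.22), Nt5dc2 (0.24) and Hoxa11, a homeobox gene of the nephrogenic mesenchyme (0.26). The nearest to Mthfd1 were Acpl2 (0.05), Slc25a13, a mitochondrial carrier gene (0.09), and Sod2, the mitochondrial superoxide dismutase gene (0.10).

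The other proteins of the glycine cleavage system did not follow Gldc. They are named here after their values were seen. Amt, the aminomethyltransferase, was at 17.3 ± 1.68 against 25.7 ± 4.00 CPM (log2 fold change -0.57, SE 0.16, edgeR adjusted p = 0.016). Gcsh, the hydrogen carrier, was at 57.5 ± 8.08 against 82.3 ± 11.2 CPM (-0.52, SE 0.15, edgeR adjusted p = 0.018). Neither Amt nor Gcsh passed without Six2-low replicate 3 (edgeR adjusted p = 0.081 and 0.076) or without both libraries of preparation 3 (0.16 for each). Amt also did not pass without both libraries of preparation 2 (edgeR adjusted p = 0.099) or with same-date libraries summed (0.1). Gcsh passed in those fits (edgeR adjusted p = 0.019 and 0.043). Dld, the dihydrolipoamide dehydrogenase shared with other mitochondrial complexes, did not pass (0.09, SE 0.13, edgeR adjusted p = 0.58).

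The stretches before the start sites of Gldc, Mthfd1l and Mthfd1, the genes with the clearest differences, are shown so that the surroundings of each start can be compared. Each is the 250 bases before the RefSeq start on GRCm38.p6, 5′ to 3′ on the gene's strand, and capitals mark every match, on either strand, to the CCAAT box (CCAAT), the core of the amino acid response element (TGATGNAA), the E-box (CACGTG) or the core of the cyclic AMP response element (TGACGT).
Gldc, chr19:30175442-30175691, minus strand: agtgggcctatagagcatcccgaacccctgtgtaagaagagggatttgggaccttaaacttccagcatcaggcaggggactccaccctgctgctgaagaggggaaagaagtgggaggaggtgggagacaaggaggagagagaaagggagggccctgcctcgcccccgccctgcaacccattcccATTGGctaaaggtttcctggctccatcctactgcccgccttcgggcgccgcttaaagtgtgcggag
Mthfd1l, chr10:3972825-3973074, plus strand: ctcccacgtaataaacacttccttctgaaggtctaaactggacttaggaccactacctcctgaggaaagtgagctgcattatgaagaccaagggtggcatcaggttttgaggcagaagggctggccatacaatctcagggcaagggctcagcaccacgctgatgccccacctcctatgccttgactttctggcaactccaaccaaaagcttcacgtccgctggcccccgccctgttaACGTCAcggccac
Mthfd1, chr12:76254982-76255231, plus strand: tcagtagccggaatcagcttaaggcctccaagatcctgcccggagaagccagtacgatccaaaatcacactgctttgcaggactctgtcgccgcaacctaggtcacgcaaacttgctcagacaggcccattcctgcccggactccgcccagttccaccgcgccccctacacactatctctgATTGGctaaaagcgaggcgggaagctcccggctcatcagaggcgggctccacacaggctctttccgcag
Gldc and Mthfd1, which moved in opposite directions, each hold a CCAAT box in reverse orientation (ATTGG), with 61 and 64 bases between it and the start. Mthfd1l has none in this window and holds a match to the cyclic AMP response element core, 7 bases before the start. Of the 10 genes 9 matched the promoter table, and 7 of these had a CCAAT box, which 33.8% of all 32851 promoters in the table hold. The units differ, as a gene counts with a match in any of its promoters (Psat1 has 2) and the share counts single promoters. The cyclic AMP element core was in 1 of the 9 and in 6.47% of all promoters. No letters of the amino acid response element core or the E-box were found in the 9, where 3.45% and 6.02% of all promoters hold them.

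Aldh1l2, the mitochondrial enzyme that burns the formyl unit (chromosome 10, 83487450 to 83534140, minus strand), was barely expressed, with 63, 20 and 31 counts in Six2-high and 51, 49 and 39 counts in Six2-low. These are 2.19, 0.844 and 1.52 CPM against 1.89, 1.91 and 1.26 CPM, which overlap. The log2 fold change was -0.14 (SE 0.38, edgeR adjusted p = 0.79), and 2 SE either side span -0.91 to 0.63, so with this spread between libraries a difference of the size seen for Mthfd1 lies inside the interval. Aldh1l2 shares 1056 exon bases with D10Wsu102e, a gene on the opposite strand at 77.2 ± 7.98 against 56.1 ± 1.16 CPM, and its low values are uncertain for that reason.

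Compared per exon kilobase, Phgdh led both fractions, at 217 ± 40.6 CPM per kilobase in Six2-high and 183 ± 34.1 in Six2-low. Shmt2 followed at 42.5 ± 3.27 and 46.7 ± 1.52, then Mthfd1 at 28.2 ± 3.04 and 42.9 ± 4.60, with the ranges of Shmt2 and Mthfd1 overlapping in Six2-low. Mthfd1 and Psat1 overlapped in Six2-high, where Psat1 was the higher in preparation 1 (31.6 against 30.9). Psat1 and Shmt1 came next in both fractions, with overlapping ranges, at 25.4 ± 6.38 and 19.5 ± 3.30 in Six2-high. Gldc stood at 19.3 ± 0.134 in Six2-high, within the range of Shmt1, and at 6.53 ± 0.480 in Six2-low, where its range met only that of Mthfd1l at 7.39 ± 0.579. Psph was above Mthfd2 in each Six2-low library without overlap (13.6 ± 1.52 against 9.54 ± 1.72), and in Six2-high the ranges of Mthfd2, Mthfd1l and Psph ran into each other, at 12.3 ± 4.66, 11.8 ± 1.56 and 9.30 ± 2.28. Aldh1l2 was last in both, at 0.249 ± 0.111 and 0.277 ± 0.0608.

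**Figure D4:**
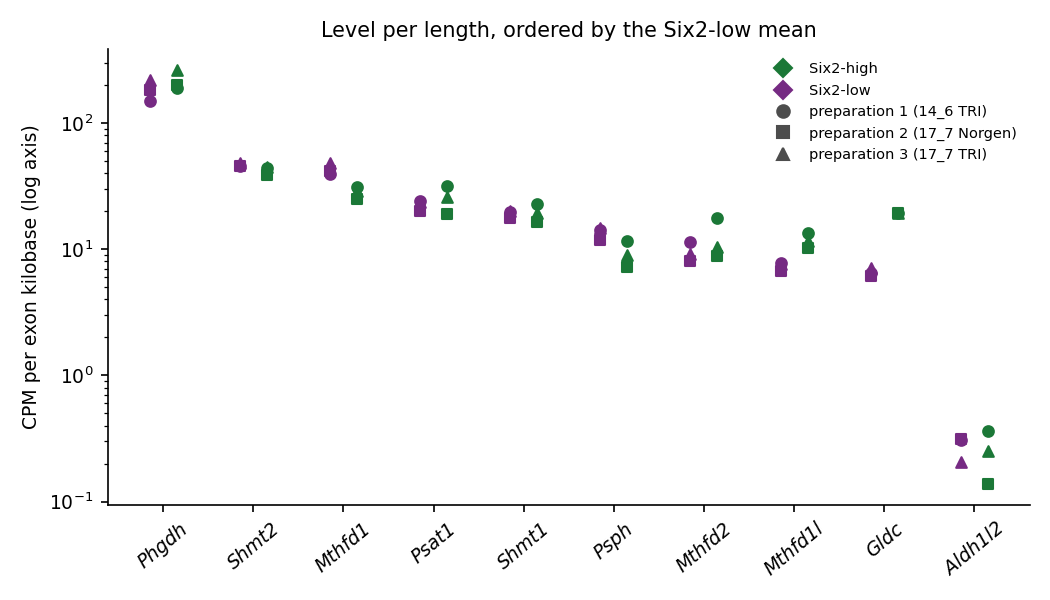
CPM per exon kilobase (log axis) of the 10 genes in each library, ordered by the Six2-low mean. Phgdh leads at 149 to 263, Aldh1l2 is last at 0.138 to 0.360, and Gldc moves from ninth in Six2-low to sixth in Six2-high.

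The wider pathway was described with 7 lists of 121 genes besides the 10, of which 114 were tested. Of these 22 were higher and 36 lower in Six2-high, which is 50.9% called, close to the 50.1% of all genes, with a median log2 fold change of -0.06. With preparation as a block 35 were higher, where that fit called 31.7% of all genes higher and 33.0% lower. With total-count scaling the median log2 fold change of all genes moved by -0.15, and 1816 of all genes were higher. Of the pathway genes 11 were then higher: 2 folate cycle, 0 glycine, 0 methionine cycle, 4 serine transport, 3 ATF4 and 2 purine genes. The numbers lower in each list did not move. The numbers given below for each list stand beside 21.4% of all genes higher and 28.7% lower, or the block shares above.

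Of 17 tested genes of the folate cycle, 3 were higher and 3 lower (median log2 fold change -0.12), and 5 and 4 with the block. Without Six2-high replicate 2, 6 were lower. Mthfd2l, a mitochondrial relative of Mthfd2, was higher at 43.7 ± 5.78 against 18.3 ± 1.99 CPM (1.26, SE 0.15, edgeR adjusted p = 0.00015). Mthfsd, a gene named for its methenyltetrahydrofolate synthetase domain, was also higher (0.65, SE 0.12). The lower genes included Folr1, a folate receptor gene, at 3.10 ± 0.878 against 68.9 ± 11.6 CPM (-4.48, SE 0.24), and Aldh1l1, the cytosolic counterpart of Aldh1l2, at 2.15 ± 0.648 against 34.0 ± 7.91 CPM (-3.99, SE 0.27). Summed proximal tubule markers fell with these genes, from 1776 ± 218 CPM in Six2-low to 135 ± 45.0 CPM in Six2-high, with 16 of 16 tested markers lower and none at 0, and the part of these cells in the result was not tested.

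Of 14 tested genes of glycine cleavage and use, 1 was higher and 5 were lower (median -0.18), and 2 and 7 with the block. Without Six2-low replicate 3, 3 were lower. Pipox, encoding a peroxisomal sarcosine oxidase, was at 1.14 ± 0.304 against 29.5 ± 4.24 CPM (-4.68, SE 0.24). Gatm, the first enzyme of creatine synthesis, was at 13.0 ± 4.50 against 83.1 ± 10.9 CPM (-2.68, SE 0.24). Lipt2, a lipoyl transferase gene, was the higher one (0.51, SE 0.18, edgeR adjusted p = 0.039), but did not pass without 1 of several libraries (Six2-high replicate 1 or 3, Six2-low replicate 2 or 3).

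Of 11 tested methionine cycle and betaine genes, 4 were higher and 3 lower (median 0.10), the same with the block. With 1 library left out, 0 were higher without Six2-high replicate 1 or without Six2-low replicate 1, 2 or 3, and 2 were without Six2-high replicate 3, while the number lower was 3 each time. Mtr, methionine synthase, and Mat2a, which makes S-adenosylmethionine, were higher by small amounts (0.42, SE 0.13, and 0.36, SE 0.11), and neither passed on leaving out any 1 of those 4 libraries (edgeR adjusted p = 0.053 to 0.092 for Mtr and 0.056 to 0.11 for Mat2a). Chdh, the choline dehydrogenase that starts betaine synthesis, was at 1.67 ± 0.727 against 51.8 ± 9.97 CPM (-4.98, SE 0.30), and Ahcyl2 was also lower (-1.18, SE 0.13).

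Of 19 tested serine transport and use genes, 4 were higher and 7 lower (median -0.07), and 6 and 7 with the block. Sfxn3, a sideroflexin of the mitochondrial serine carrier family, was at 97.5 ± 20.3 against 34.5 ± 4.95 CPM (1.50, SE 0.18, edgeR adjusted p = 0.00016), and Slc38a1, a neutral amino acid transporter gene, at 202 ± 20.7 against 132 ± 2.74 CPM (0.61, SE 0.11). Slc6a20b was lower, from a low level, at 0.604 ± 0.122 against 5.20 ± 0.365 CPM (-3.10, SE 0.27). So was Serinc2, at 16.6 ± 2.04 against 43.5 ± 3.28 CPM (-1.39, SE 0.14). Serine transport itself was not measured.

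ATF4 is the stress-responsive transcription factor that induces several serine synthesis genes. Of 33 tested genes in its list, 6 were higher and 9 lower (median 0.14), beside 21.4% and 28.7% of all genes tested. With the block 11 were higher and 10 lower, beside 31.7% and 33.0%. Without both libraries of preparation 3 the numbers were 2 and 5. That fit called 1329 of all genes higher and 3300 lower, against 3285 and 4401 with all libraries. Atf4 itself was at 378 ± 4.61 against 267 ± 6.64 CPM (0.50, SE 0.10, edgeR adjusted p = 0.0027), and Pycr1, a proline synthesis gene, at 18.7 ± 1.19 against 9.95 ± 1.01 CPM (0.91, SE 0.15). Ddr2, a collagen receptor gene also carried by stroma, was at -4.81 (SE 0.28), and Sesn2, a stress-induced sestrin gene, was at 8.55 ± 0.823 against 34.3 ± 2.35 CPM (SE of the log2 fold change 0.14, edgeR adjusted p = 8.1e-06). Stromal markers fell along with Ddr2 in 10 of 11 tested genes, and their part in the result was not tested.

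**Figure D5:**
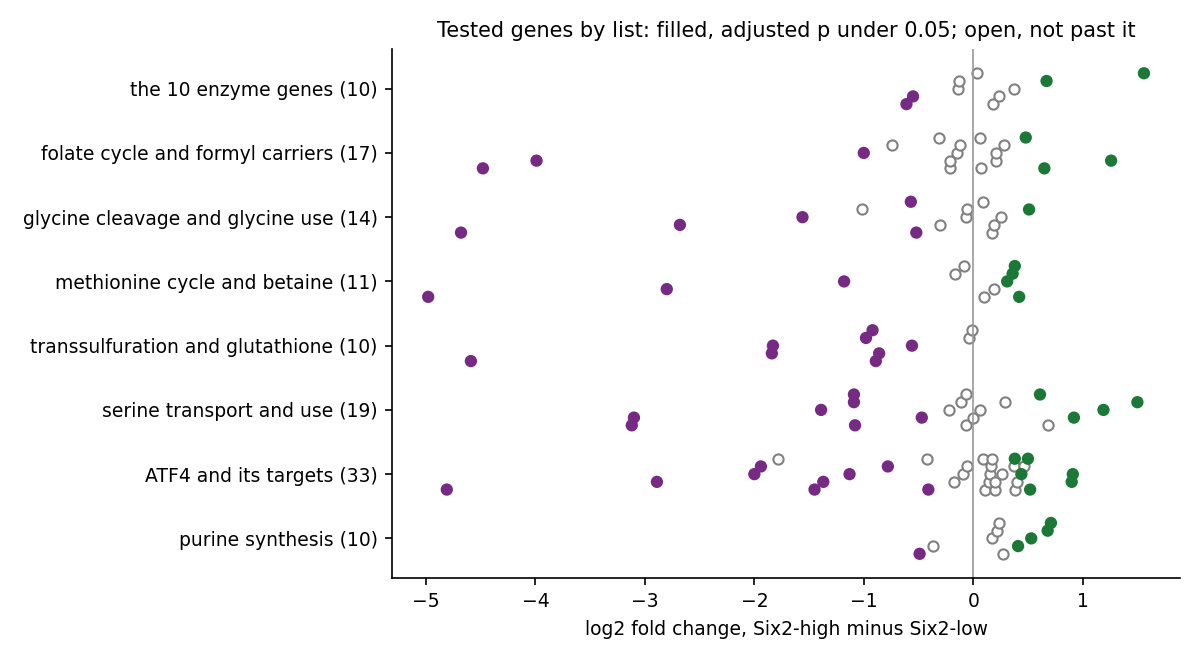
Log2 fold change, Six2-high minus Six2-low (x axis), of the 10 enzyme genes and of the tested genes of each pathway list (number tested in brackets). Filled points passed an adjusted p of 0.05, and the largest losses, near -5, are Chdh, Ddr2 and Pipox.

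Proliferation markers, genes of dividing cells, were mostly not called: of 18 tested, 2 were higher and 1 lower (median 0.08), 7 and 2 with the block, and 0 and 1 with total-count scaling. Their summed level was highest in preparation 1 of both fractions, at 3419.6 CPM (Six2-high) and 2861 CPM (Six2-low), against 2279 and 2626 CPM and 2126 and 2325 CPM in preparations 2 and 3. Mthfd2 and Psat1 were also highest in preparation 1 of both fractions and Phgdh lowest, although preparations 1 and 3 share the TRI tag. Preparation 1 alone has its date tag, so that tag and cell state cannot be told apart.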

How the data were processed

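The authors deposited raw counts per gene symbol for 6 libraries, and a scaled version that was not used. Build mm10 and the tools HTSeq 0.6.1p1, TopHat2 2.1.0, TopHat, DESeq2 and SAMtools come from the submitters' processing notes, which assign them no roles. Annotation and strand setting are not given there. Raw counts entered edgeR 4.0.16 under R 4.3.3 (filterByExpr, TMM, quasi-likelihood F test on all genes, two-sided, Benjamini-Hochberg), without pairing. SE is the absolute log2 fold change divided by the square root of F. The edgeR fit was tried on simulated data in which few genes changed, as many up as down, and preparations had no effect. These data differ in both respects, so the simulation does not check the scaling or the block here. DESeq2 was version 1.42.0. Preparations pair the libraries by the tags shared in the labels. Deviations from the fraction means correlated across genes at 0.37, 0.42 and 0.33 within the 3 preparations. Coordinates and exon lengths (merged exons of coding transcripts) are GENCODE M21 on mm10, and promoters are from RefSeq on GRCm38.p6. Similar transcripts were found with BLAST 2.17.0. The 10 genes, the pathway and marker lists and the tests were chosen with earlier results of these data known. Named genes are the 10, Six2, Cited1, up to 2 called genes with the smallest p per list and direction, and the 3 nearest to the most raised and most lowered member. Other genes named in the text were chosen after their values were seen. Alternatives were scaling, filter, DESeq2, the block, left-out libraries and preparations, a 2-fold threshold, summed same-date libraries and the removal of Rn45s and Lars2.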

Additional observations from a re-analysis of the deposited data

How the results depend on the processing

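Gldc passed under all 17 alternatives (log2 fold change 1.41 to 1.62). Mthfd1l passed under 16 and Mthfd1 under 15, the exceptions being a test against a 2-fold change (both) and the removal of both libraries of preparation 3 (Mthfd1). On that removal Mthfd1l stood at the threshold (edgeR adjusted p = 0.05 after rounding). Psph passed under 8 (log2 fold change -0.76 to -0.38). Against a 2-fold change 1 member was higher and 0 lower, 546 of all genes were higher and 2662 lower, and 1 pathway gene was higher and 17 lower. With same-date libraries summed 1 member was lower and 1995 of all genes were higher. With total-count scaling the median of all genes moved by -0.15, 1816 genes were higher (27.5% of calls against 42.7%) and 11 pathway genes were higher. The replicate block called 35 pathway genes and 4860 of all genes higher. It gave 0.25 for Phgdh (edgeR adjusted p = 0.018) and changed no other member's call. Leaving out a library gave 1 to 2 members lower, 2160 (without Six2-low replicate 2) to 3183 of all genes higher and 13 (the same library) to 25 pathway genes higher. Leaving out both libraries of replicate 2 gave 1 member lower and 2086 of all genes higher, and of replicate 3 gave 0 members lower, 1329 of all genes higher and 10 pathway genes higher. Reversed signs, all in uncalled genes, were -0.03 for Psat1 without Six2-high replicate 1 (up to 0.36 without another library), -0.12 for Shmt1 with total-count scaling, without Six2-high replicate 1 and without both libraries of replicate 1, -0.03 for Shmt1 without Six2-low replicate 2 (up to 0.15), and 0.16 and 0.25 for Aldh1l2 without Six2-high replicate 2 and without both libraries of replicate 2 (down to -0.53 without Six2-high replicate 1). The cause was not tested. Of 408 values of 24 named pathway genes, 362 kept their side of the threshold and 46 lost it, none in sign.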

Other observations

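The list of transsulfuration and glutathione genes was lower in Six2-high in 8 of 10 tested members and higher in none. Of all genes tested, 28.7% were lower and 21.4% higher. The list had a median log2 fold change of -0.90, against 0.05 over all genes tested. Besides synthesis genes it holds Ggt1, Chac1 and Chac2, of glutathione breakdown, and Cdo1 and Csad, of cysteine breakdown. Ggt1, Chac2 (-1.83, SE 0.29) and Csad (-0.56, SE 0.14) were among the lower genes, and Chac1 and Cdo1 were not called. Leaving out 1 library gave 7 or 8 lower. Gclm, the modifier subunit of the rate-limiting glutathione enzyme, was at 20.3 ± 1.92 against 72.7 ± 3.63 CPM (-1.84, SE 0.12, edgeR adjusted p = 4.9e-06). Ggt1, a glutathione-cleaving enzyme of the proximal tubule brush border, was at 8.51 ± 3.73 against 203 ± 49.2 CPM (-4.59, SE 0.33). Proximal tubule markers fell in the same libraries, in 16 of 16 tested genes, and their part in the result was not tested.

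Purine synthesis uses formyl-folate in steps whose genes, Gart and Atic, were counted in the folate list. There Atic was higher (0.48, SE 0.11) and Gart did not pass (0.28, SE 0.17). In the purine list, 4 of 10 tested genes were higher and 1 lower, with a median of 0.26. With the replicate block these numbers were 7 and 2. The 5 calls of 10 stand beside 50.1% of all genes tested, and 64.6% with the block. Without Six2-high replicate 3 or without Six2-low replicate 2, 2 purine genes were higher. Impdh2, which commits purines to guanine nucleotides, was at 275 ± 28.3 against 171 ± 13.9 CPM (0.68, SE 0.12, edgeR adjusted p = 0.0016), and Pfas, the enzyme after the first formyl transfer, at 83.9 ± 19.2 against 51.1 ± 5.19 CPM (0.71, SE 0.17). Impdh1 was at 31.3 ± 6.73 against 44.1 ± 4.57 CPM (-0.49, SE 0.17, edgeR adjusted p = 0.041), and did not pass without any 1 library other than Six2-high replicate 2 (adjusted p = 0.056 to 0.093). With total-count scaling 2 purine genes were higher and 1 lower.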
